A study of Mus musculus with 14 samples.

Results

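The G2 and mitosis genes described here are 42 genes named by symbol for their roles between the end of DNA replication and cell separation. All 42 were found among the 19322 genes of the E10 single-cell table, the 19424 genes of the E11 single-cell table and the 19425 genes of the table of whole intra-aortic haematopoietic clusters (wIAHCs). The genes are named by role, and no threshold on a measured value is part of the rule. They fall into 9 role groups: 6 cyclin-CDK genes, 6 mitotic kinase and spindle checkpoint genes, 3 genes of the chromosomal passenger complex, 2 of the anaphase-promoting complex (APC/C), 5 of the kinetochore and centromere, 10 of the spindle, 3 of cytokinesis, 5 of chromosome structure and 2 of the nuclear envelope.

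In the mouse aorta, haemogenic endothelial (HE) cells lose endothelial identity through an endothelial-to-haematopoietic transition (EHT) and give rise to intra-aortic haematopoietic clusters (IAHCs), in which the precursors of haematopoietic stem cells (pre-HSCs) lie. The series measured single cells of these steps and wIAHCs by CEL-Seq, which counts the 3′ ends of messenger RNA molecules. Non-HE (Cdh5+ Gfi1- Gfi1b- c-kit-), HE (Cdh5+ Gfi1+ Gfi1b- c-kit-) and EHT cells (Cdh5+ Gfi1+ Gfi1b- c-kit+) came from the aorta-gonad-mesonephros region (AGM) of ICR embryos labelled Gfi+/tomato/ Gfi1b+/GFP. In these embryos 1 allele each of the reporter loci carries a fluorescent protein, so the gates read reporter fluorescence. All other cells came from C57BL/6 WT embryos: IAHC cells (c-kit+ CD31+ at E10, c-kit+ CD31+ or c-kit+ at E11), E11 pre-HSCs (c-kit+ Cdh5+, split into type I and type II by the CD45 index), c-kit+ yolk sac (YS) haematopoietic stem and progenitor cells (HSPCs) and c-kit+ wIAHCs picked from embryo slices. E10 embryos had 28 to 32 somite pairs and E11 embryos more than 40. Strain and reporter genotype change between EHT cells and IAHC, pre-HSC or YS cells, so that strain and population cannot be told apart in those comparisons. AGMs were pooled before sorting. Each population is 1 sample, except that the E11 IAHC cells combine 2 samples (c-kit+ CD31+ and c-kit+) and that both pre-HSC types share 1. Single-cell populations were therefore compared by size and counting interval, and no test between them was made.

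The E10 table held 546 cells (43 non-HE, 98 HE, 191 EHT, 73 IAHC and 141 YS HSPC) at 3000 transcripts per cell. The E11 table held 575 cells (30 non-HE, 46 HE, 46 EHT, 62 type I pre-HSC, 55 type II pre-HSC, 290 IAHC and 46 YS HSPC) at 5000 transcripts per cell. The columns of the E10 non-HE cells bear a name that points to early E11 endothelium, and the label E10 was followed. No cell was identical to another. The labels were checked with defining markers: Cdh5, the endothelial cadherin, was detected in 100% of non-HE cells at both stages and in 2.13% of E10 YS HSPCs. Ptprc, which encodes CD45, was detected in 8.06% of type I and 27.3% of type II pre-HSCs, and in 0 of the 30 non-HE and 0 of the 46 HE cells at E11. All 8 macrophage markers were at 0 in non-HE cells of both stages. The study selected IAHC cells after sequencing by their Gpr56 transcripts. Gpr56 was detected in 100% of IAHC cells at both stages. EHT cells had it in 91.1% at E10 and 93.5% at E11, and YS HSPCs in 88.7% and 82.6%. Comparisons with IAHC cells therefore set cells selected by a transcript against cells that were not.

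Entry into mitosis is driven by Cdk1 bound to A- and B-type cyclins, together with Aurora and Polo kinases. The spindle checkpoint holds the APC/C inactive until every kinetochore is attached, after which the APC/C sends the cyclins to destruction and chromosomes separate. Messenger RNAs of these genes build up in G2 and are low in G1 and in resting cells, and many of their promoters share a CHR element and CCAAT boxes through which the DREAM complex and NF-Y act. Their level and spread over single cells are therefore commonly read as a sign of how many cells lie late in the cycle.

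The 250 bases upstream of the start were read for 37 of the 42 members from RefSeq promoters of GRCm38.p6, and Ccna2, Aurkb, Tpx2, Dlgap5 and Smc4 had no entry. The letters TTTGAA (a core of the CHR element) and CCAAT (the CCAAT box) were searched on both strands. TTTGAA was found in 16 of 37 members (43.2%) against 18.3% of 27025 genes, CCAAT in 28 (75.7%) against 37.5%, and both in 14 (37.8%) against 6.45%. These are counts of letters and not of bound sites. The 150 bases upstream of the start are shown, 5′ to 3′ on the gene's strand, for 7 members that recur in the results below, with both motifs in capitals on either strand.
Ccnb1 (chr13:100786487-100786636, minus strand): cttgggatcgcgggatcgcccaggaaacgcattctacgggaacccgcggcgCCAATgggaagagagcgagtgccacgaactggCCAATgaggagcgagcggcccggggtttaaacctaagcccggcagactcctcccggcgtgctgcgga
Plk1 (chr7:122159285-122159434, plus strand): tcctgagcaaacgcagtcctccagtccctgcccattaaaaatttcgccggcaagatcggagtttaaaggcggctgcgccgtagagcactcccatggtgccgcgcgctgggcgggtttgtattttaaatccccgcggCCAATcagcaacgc
Ube2c (chr2:164769779-164769928, plus strand): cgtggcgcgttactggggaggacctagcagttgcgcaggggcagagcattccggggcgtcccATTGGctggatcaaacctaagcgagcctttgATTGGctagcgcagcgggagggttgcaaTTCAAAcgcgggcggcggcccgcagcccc
Cdk1 (chr10:69352913-69353062, minus strand): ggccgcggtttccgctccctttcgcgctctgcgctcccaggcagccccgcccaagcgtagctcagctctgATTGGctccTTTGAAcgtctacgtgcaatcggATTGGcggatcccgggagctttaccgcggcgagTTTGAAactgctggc
Kif11 (chr19:37376232-37376381, plus strand): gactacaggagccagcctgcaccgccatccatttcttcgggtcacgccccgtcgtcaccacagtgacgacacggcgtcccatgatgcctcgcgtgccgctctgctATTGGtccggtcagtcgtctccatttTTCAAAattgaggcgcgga
Lbr (chr1:181842402-181842551, minus strand): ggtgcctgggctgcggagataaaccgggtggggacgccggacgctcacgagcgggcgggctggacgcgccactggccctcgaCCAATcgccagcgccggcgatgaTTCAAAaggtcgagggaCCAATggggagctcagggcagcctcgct
Hmgb2 (chr8:57511693-57511842, plus strand): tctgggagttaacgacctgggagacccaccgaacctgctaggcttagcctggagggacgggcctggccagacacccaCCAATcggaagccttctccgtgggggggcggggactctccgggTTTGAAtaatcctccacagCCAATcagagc
Ccnb1 and Plk1 held CCAAT boxes and no TTTGAA in the 250 bases, whereas Ube2c, Cdk1, Kif11, Lbr and Hmgb2 held both. The TTTGAA motif nearest to the start lay 29 bases upstream in Ube2c, 15 in Cdk1, 19 in Kif11, 45 in Lbr and 30 in Hmgb2.

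At E10, the summed transcripts of the 42 members were lowest in non-HE cells and highest in YS HSPCs, with HE, EHT and IAHC cells between them. The mean per cell was 10.4 in non-HE cells (95% Poisson interval 9.43 to 11.4, n = 43 cells), 17.8 in HE cells (17 to 18.7, n = 98), 18.1 in EHT cells (17.5 to 18.7, n = 191), 20 in IAHC cells (18.8 to 20.9, n = 73) and 25.7 in YS HSPCs (24.9 to 26.5, n = 141). These intervals, like all intervals given for single cells, cover counting error only. HE and EHT cells, neighbours in this order, had overlapping intervals and a ratio of 1.01 (0.957 to 1.07). The 3 sorted sets of EHT cells had means of 15.0, 20.6 and 19 and the single set of IAHC cells one of 20, so that the sets of EHT cells reached both below and above the IAHC level. The first of these EHT sets, which is the lowest, names the same stage as the HE cells, and the others name late E10. The ratio of EHT to HE therefore mixes named stages.

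At E11, the lowest level was in HE cells and not in non-HE cells. The mean per cell was 9.74 in HE cells (8.86 to 10.7, n = 46), 19 in EHT cells (18.1 to 20.6, n = 46), 21.9 in non-HE cells (20.3 to 23.7, n = 30) and 22.3 in type I pre-HSCs (21.1 to 23.5, n = 62). It was 25.3 in IAHC cells (24.7 to 25.9, n = 290), 29.4 in type II pre-HSCs (28.0 to 30.9, n = 55) and 29.8 in YS HSPCs (28.2 to 31.4, n = 46). The intervals of EHT and non-HE cells, of non-HE cells and type I pre-HSCs, and of type II pre-HSCs and YS HSPCs overlapped. The medians ordered the cells differently: they were 5 in HE, 7.5 in non-HE, 9.5 in EHT, 13.5 in type I, 22 in IAHC, 24 in type II and 28.5 in YS HSPCs, and 6 of the 30 non-HE cells held 57.9% of that population's member transcripts. At E10 the medians were 5, 10, 13, 17 and 26 from non-HE to YS HSPCs, in the order of the means. As a share of all transcripts, which can be set side by side across the 2 depths, the members took 0.346% in E10 non-HE, 0.594% in E10 HE and 0.857% in E10 YS HSPCs, against 0.439%, 0.195% and 0.596% at E11. The stages came from separate tables, and no test was made across them.

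The mean hid wide differences between cells of 1 population. With E11 cells thinned to 3000 transcripts, the variance over the mean of the summed members, which is 1 for pure counting noise, was 14.4 in E10 non-HE, 18.1 in HE, 11.2 in EHT, 8.76 in IAHC and 2.90 in YS HSPCs. At E11 it was 17.1 in non-HE, 14.6 in HE, 11 in EHT, 11.4 in type I and 7.85 in type II pre-HSCs, 7.23 in IAHC and 3.42 in YS HSPCs. Endothelial populations therefore held a mixture of cells nearly empty of these transcripts and cells rich in them, and YS HSPCs were the most even at both stages. For 38 S phase genes, the same ratio was also lowest in YS HSPCs, at 1.84 at E10 and 2.38 at E11.

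Cells with at least 15 member transcripts of 3000 made up 25.6% of E10 non-HE (exact binomial interval 13.5 to 41.2), 42.9% of HE, 46.1% of EHT, 53.4% of IAHC and 86.5% of YS HSPCs (79.8 to 91.7). At E11 they made up 36.7% of non-HE, 8.70% of HE (4 of 46 cells), 37.0% of EHT, 37.1% of type I pre-HSC, 52.7% of type II pre-HSC, 46.6% of IAHC and 71.7% of YS HSPC. The threshold of 15 is a line through a range and not a cell type, and cells with 13 to 17 transcripts numbered 28 of 191 among E10 EHT cells, 30 of 290 among E11 IAHC cells, 12 of 55 among type II pre-HSCs and 15 of 46 among E11 YS HSPCs. Above the line, where the line itself sets the lowest value, the mean was 29 in E10 non-HE, 34.2 in HE, 30.5 in EHT, 29.8 in IAHC and 27.8 in YS HSPCs. At E11 the mean above the line ran from 21.5 in YS HSPCs to 35.2 in HE cells, of which 4 lay above it. Below the line, the mean at E10 was 3.97 in E10 non-HE, 5.52 in HE, 7.42 in EHT, 8.29 in IAHC and 12 in YS HSPCs, and at E11 it ran from 3.40 in HE cells to 8.31 in YS HSPCs. The lowest YS HSPC at E10 still held 6 member transcripts, whereas 23 of 43 non-HE cells held 5 or fewer.

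**Figure D1:**
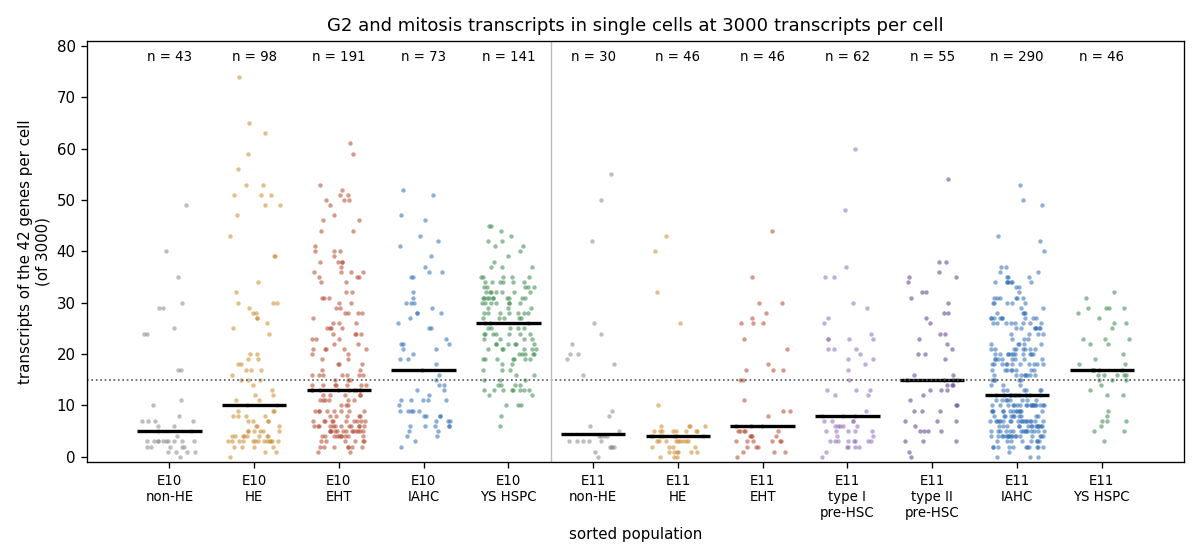
Transcripts of the 42 members per cell (y axis, of 3000 transcripts; E11 cells thinned) in the 12 sorted populations (x axis), with 1 point per cell and a dotted line at 15 transcripts. E10 YS HSPCs lie mostly above the line (86.5% of cells) and E11 HE cells mostly below it (8.70% above).

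The first comparison asked how HE differed from non-HE endothelium. At E10 the summed members were 1.72 times higher in HE (1.55 to 1.9), and at E11 they were 0.444 times the non-HE level (0.393 to 0.501), or 0.667 times by the medians per cell. Of 30 members with at least 20 transcripts over both E10 populations, 13 were at least 2-fold higher in HE, against 9.71% of all genes, and 0 were at least 2-fold lower, against 5.83%. The median ratio was 1.95 over those members and 1.07 over all genes. At E11, 0 of 19 members were at least 2-fold higher (all genes 7.32%) and 11 were at least 2-fold lower (all genes 5.05%), with a median of 0.400 against 1.02.

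At E10 the largest ratios belonged to Aurka, the Aurora kinase of the centrosome (0.0465 transcripts per cell in non-HE and 0.245 in HE, ratio 5.27, 1.3 to 46), Plk1, the Polo-like kinase (0.0930 and 0.367, ratio 3.95) and Lbr, the lamin B receptor of the inner nuclear membrane (0.163 and 0.643, ratio 3.95, 1.81 to 10.2). Nusap1, a spindle microtubule-binding protein, had a ratio of 3.66 and Ccna2, cyclin A2, one of 3.35. The smallest ratios belonged to spindle genes: Dlgap5 (0.519, 0.214 to 1.28), the motor Kif11 (0.641, 0.300 to 1.41) and Tpx2, the activator of Aurora A (0.846), followed by the cytokinesis scaffold Anln (1.02) and Aurkb, the kinase of the passenger complex (1.04). Each of these 5 intervals includes 1. All 6 cyclin-CDK genes had a ratio above 1, with a summed ratio of 2.09 (1.7 to 2.61), and the 10 spindle genes summed to 1.18 (0.889 to 1.58).

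At E11 the same contrast was lowest for Tpx2 (0.533 per cell in non-HE and 0.0870 in HE, ratio 0.163), Birc5, which encodes survivin (0.633 and 0.109, ratio 0.172, 0.0501 to 0.475), Ccnb2, cyclin B2 (0.733 and 0.130, ratio 0.178), Plk1 (0.567 and 0.109, ratio 0.192) and Ccna2 (0.60 and 0.130, ratio 0.217). The ratios nearest to 1 were those of Tmpo, the lamina-associated LAP2 (1.83 and 1.78, ratio 0.972, 0.683 to 1.4), the kinetochore gene Cenpf (0.691), the condensin subunit Smc4 (0.652), Cks2 (0.652) and Tacc3 (0.598). Tmpo and Lbr, the nuclear envelope pair, took 22.1% of all member transcripts in E11 HE and between 7.78% and 12.6% in the other 11 populations. Among genes that are no members, the 38 S phase genes summed to 1.87 times the non-HE level at E10 (1.67 to 2.11) and to 0.591 times at E11 (0.508 to 0.688), and 56 other G2/M genes to 1.49 and 0.485 times. Marker levels stood beside these ratios as follows: the 6 endothelial markers summed to 26.4 per cell in E10 non-HE and 15.8 in E10 HE, and to 27.9 and 32.7 at E11, and their part in the result was not tested. The E11 ratio rests on 30 and 46 cells, of which 11 and 5 held at least 15 member transcripts of 5000.

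The next comparison followed HE into EHT. At E10 only 1 of 42 members was at least 2-fold higher (all genes 10.51%) and 1 at least 2-fold lower (all genes 9.22%), with a median of 1.08 against 1.05. Ckap2, a spindle-associated protein, had the highest ratio (0.112 and 0.262 per cell, ratio 2.33, 1.2 to 4.97), before Bub1b (1.85), Anln (1.8), Smc4 (1.7) and Bub1 (1.68), the checkpoint kinase. Ccnb2 had the lowest (0.571 and 0.277, ratio 0.486, 0.327 to 0.720), before Nuf2 (0.542), Nusap1 (0.616), Hmmr (0.631) and Ect2 (0.684).

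At E11 the step into EHT was large: 14 of 24 members were at least 2-fold higher (all genes 8.71%) and 0 at least 2-fold lower (all genes 14.12%), and the sum was 1.98 times higher (1.77 to 2.23). Birc5 went from 0.109 to 0.652 per cell (ratio 6.00, 2.31 to 20), Aurkb from 0.0870 to 0.478 (5.50), Ccna2 from 0.130 to 0.587 (4.5), Top2a, the topoisomerase that untangles chromosomes, from 0.217 to 0.935 (4.30, 2.13 to 9.60), and Plk1 from 0.109 to 0.457 (4.20). Birc5 and Aurkb are partners in the chromosomal passenger complex, whose 3 members summed to a ratio of 3.88 (2.25 to 7.06). Tmpo (0.780), Cks2 (0.970), Kif11 (1.00), Cdc20, the APC/C activator (1.27), and Aurka (1.36) had the lowest ratios. The S phase genes summed to 2.79 (2.46 to 3.17) in this step, above the members. The 8 macrophage markers averaged 1.89 transcripts per E11 EHT cell with 27 in the highest cell. The 6 endothelial markers summed to 32.7 per cell in HE and 13.2 in EHT cells at E11, and to 15.8 and 6.52 at E10. The 8 haematopoietic markers summed to 0.674 and 7.76 at E11, and to 1.23 and 5.80 at E10. The part of these markers in the result was not tested.

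Between EHT and IAHC cells the ratio of the sums was 1.1 at E10 (1.03 to 1.17) and 1.3 at E11 (1.2 to 1.41), or 2.32 at E11 by the medians per cell. Without the first sorted set of EHT cells the E10 ratio was 1.01. At E10, 1 of 42 members was at least 2-fold higher (all genes 5.46%) and 7 at least 2-fold lower (all genes 15.84%), which are shares close to or below those of all genes. The higher one was Kif11, the motor that pushes spindle poles apart, at 0.230 per cell in EHT and 1.03 in IAHC (ratio 4.46, 3.03 to 6.63), followed by Kif2c (1.85), Ccnb2 (1.78), Tacc3 (1.74) and Top2a (1.66). Hmgb2, a chromatin protein, went the other way from 1.66 to 0.507 (ratio 0.304, 0.210 to 0.429), as did Smc4 (0.313), the kinesin Kif20b (0.125), Ndc80 (0.374, with an interval that includes 1) and Anln (0.382).

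At E11, 9 of 41 members were at least 2-fold higher in IAHC than in EHT cells (all genes 12.44%) and 5 at least 2-fold lower (all genes 14.29%). The checkpoint gene Bub1b went from 0.109 to 0.483 per cell (ratio 4.44, 1.86 to 13.9), Cdc20 from 0.304 to 1.00 (3.29), the passenger gene Cdca8 from 0.304 to 0.941 (3.09), Cenpa, the centromeric histone, from 0.457 to 1.19 (2.60) and Ccnb2 from 0.326 to 0.817 (2.51). The 5 lowest ratios were those of Cenpf (0.295, 0.194 to 0.456), Ckap2 (0.378, 0.192 to 0.788), Hmgb2 (0.468, 0.370 to 0.595), Dlgap5 (0.476, 0.235 to 1.04) and Anln (0.493, 0.226 to 1.2), and the intervals of Dlgap5 and Anln include 1. The share of members at least 2-fold lower was below that of all genes. Hmgb2 and Ckap2 were at least 2-fold lower at both stages, with intervals below 1. Without Hmgb2, which lowers the sum in this step, the summed ratio was 1.18 at E10 and 1.41 at E11. A ratio without Kif11, which raises the sum at E10, is not given, so that this setting moves the ratio in 1 direction only. Strain and reporter genotype change in this step, as given above. Markers moved with it: the 9 erythroid markers summed to 0.0419 per cell in EHT cells (0 to 3; 5 of 9 detected) and 1.59 in IAHC cells (0 to 16; 5 of 9 detected) at E10, and to 0.0870 and 0.321 at E11. The 6 endothelial markers, all detected, summed to 6.52 and 4.22 at E10 and to 13.2 and 6.88 at E11. Their part in the result was not tested.

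Type I pre-HSCs stood between EHT and type II pre-HSCs. Against EHT cells, 4 of 33 members were at least 2-fold higher in type I (all genes 7.41%) and 2 at least 2-fold lower (all genes 12.60%), with a sum of 1.2 (1.06 to 1.26). Bub1b (5.19, 2.03 to 17), Cdc20 (2.60), Cenpa (2.12), Ccnb2 (2.08) and Cdca8 (1.80) led, and Smc4 (0.408), Hmgb2 (0.421, 0.297 to 0.592), Aurkb (0.506), Cenpf (0.515) and Ckap2 (0.571) trailed. These leading genes are also the 5 that led between EHT and IAHC cells at E11. Both comparisons share the EHT cells, so that a low EHT value raises a gene's ratio in both. The overlap to be expected from this was not computed, and no conclusion is drawn from the shared genes. The 9 erythroid markers summed to 0.0870 per cell in EHT cells (0 to 2; 3 of 9 detected) and to 3.58 in type I pre-HSCs (0 to 22; 6 of 9 detected), and their part in the result was not tested.

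From type I to type II, 4 of 36 members were at least 2-fold higher (all genes 3.42%) and 0 at least 2-fold lower (all genes 4.11%), and the sum was 1.32 times higher (1.23 to 1.4). Kif11 went from 0.419 to 1.3 per cell (ratio 3.08, 1.94 to 5.03), and its mean lay between 0.800 and 2.10 in the 3 sorted sets of type II cells. Nusap1 (2.25), Nuf2 (2.05), Ccnb1, cyclin B1 (0.435 and 0.873, ratio 2.00, 1.23 to 3.34) and Birc5 (1.72) followed, whereas Ndc80 (0.601), the proliferation marker Mki67 (0.916), Kif23 (0.939), Ccna2 (0.974) and Ccnb2 (1.02) had the lowest ratios. Type I and type II cells come from 1 sample of 1 strain. The sums of the 3 sorted sets were 18.2, 31.9 and 32.0 per cell in type II and 25.8, 20.5 and 23.9 in type I, in the same order of sets. The ratio of type II to type I was 0.707 in the first set (0.576 to 0.867; 10 and 8 cells), 1.55 in the second (1.4 to 1.72) and 1.34 in the third (1.19 to 1.51), so that the sets did not all point the same way. The pooled ratio and its interval do not take this spread into account. Markers moved with this step: the 6 endothelial markers summed to 8.61 per cell in type I and 4.44 in type II. The 8 haematopoietic markers summed to 8.26 and 10.7, and the 9 erythroid markers to 3.58 and 2.49. Their part in the result was not tested.

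YS HSPCs had the highest sum at both stages: the E10 ratio to IAHC cells was 1.30 (1.2 to 1.38) and the E11 ratio 1.18 (1.11 to 1.25). At E10, 4 of 36 members were at least 2-fold higher (all genes 9.19%) and 0 at least 2-fold lower (all genes 9.74%). They were Cenpf (0.384 and 1.02 per cell, ratio 2.66, 1.77 to 4.15), the spindle gene Hmmr (2.52), Plk1 (0.411 and 0.986, ratio 2.40) and Ccnb1 (0.575 and 1.2, ratio 2.10), and Dlgap5 came next (1.85). Nusap1 (0.725), Ccnb2 (0.820), Cenpa (0.835), Tmpo (0.853) and Lbr (0.865) had the lowest ratios, each with an interval that includes 1. Ccnb1 and Ccnb2, the B-type cyclins, therefore parted in this comparison.

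At E11, 3 of 41 members were at least 2-fold higher in YS HSPC than in IAHC cells (all genes 3.80%) and 0 at least 2-fold lower (all genes 19.56%). They were Mad2l1, the checkpoint protein that binds Cdc20 (0.221 and 0.652 per cell, ratio 2.96, 1.85 to 4.63), Hmmr (2.23) and Cks2, a small Cdk-binding protein (1.04 and 2.09, ratio 2.01, 1.58 to 2.54), before Cenpf (1.7) and Bub1 (1.58). The paralogue Cks1b was at 1.82 and 2.15 (ratio 1.18, 0.944 to 1.5). Dlgap5 (0.573), Cenpe (0.700), Hmgb2 (0.727), Ttk (0.742) and Ccnb2 (0.771) had the lowest ratios, each with an interval that includes 1. Hmmr and Cenpf were among the 5 highest at both stages. YS HSPCs also differed in marker content: the 6 endothelial markers summed to 0.298 per cell at E10 and 1.26 at E11, against 4.22 and 6.88 in IAHC cells. The 9 erythroid markers summed to 1.61 per cell in YS HSPCs and 1.59 in IAHC cells at E10, and to 5.11 (1 to 17; 7 of 9 detected) and 0.321 (0 to 16; 7 of 9 detected) at E11, with Hba-a2 at 0 in both E11 populations. The part of these markers in the result was not tested.

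**Figure D2:**
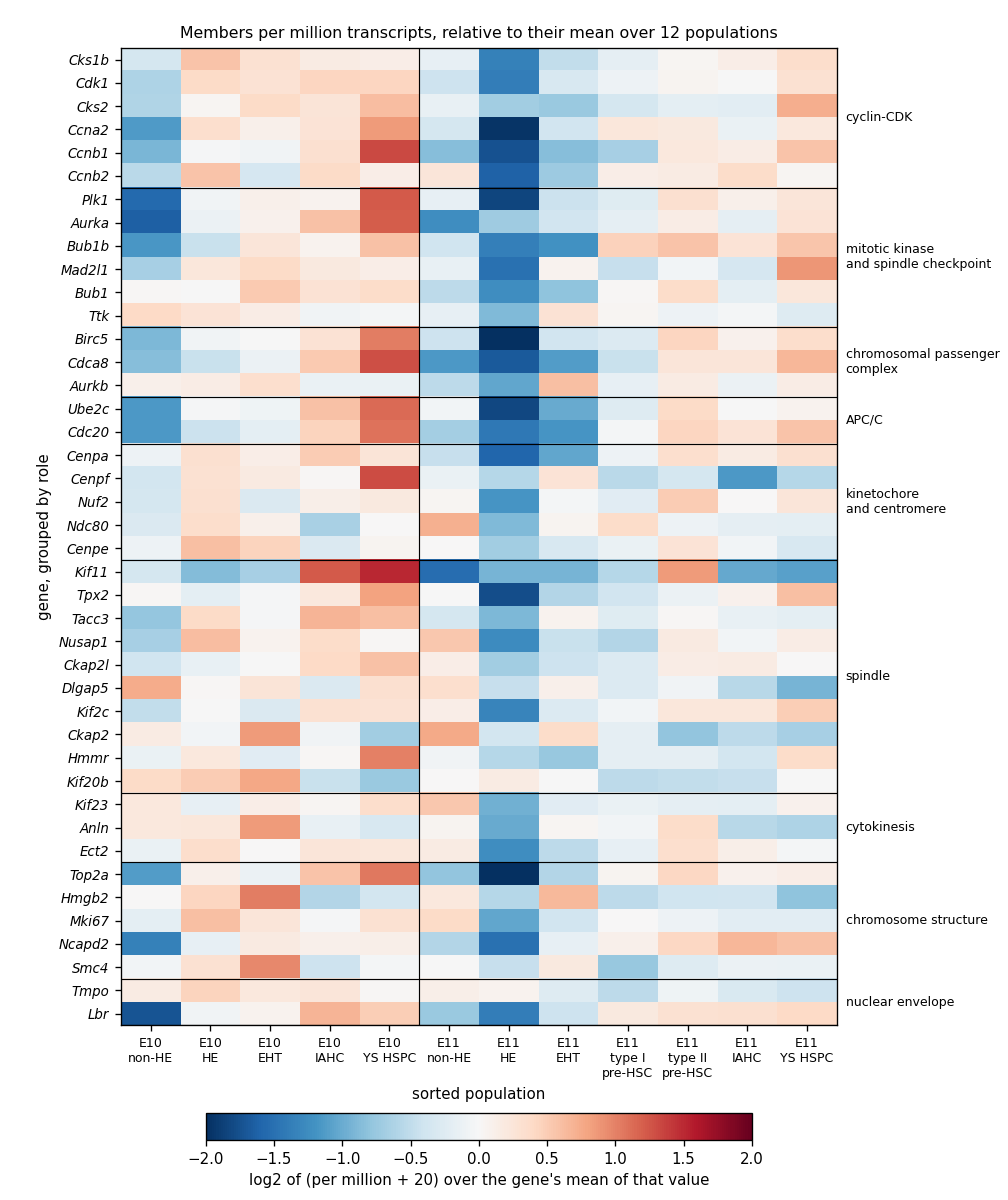
Level of each of the 42 members (y axis, grouped by role) in the 12 sorted populations (x axis), as the log2 of the depth-scaled level relative to the gene's mean over the populations. Most members are low in E10 non-HE and E11 HE, and Kif11 and Hmgb2 depart from that order.

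By role, cyclin-CDK genes were the largest or second largest part of the sum everywhere, at 21.9% to 29.3% of member transcripts. Cdk1, the kinase itself, ranged from 0.535 per cell in E10 non-HE to 1.17 in E10 YS HSPCs and from 0.478 in E11 HE to 1.8 in E11 YS HSPCs. Ube2c, the E2 enzyme of the APC/C, had the highest mean of all members in E10 YS HSPCs (2.04) and Tmpo in E10 non-HE (1.14) and E11 HE (1.78). The APC/C pair took 5.38% of member transcripts in E10 non-HE and 12.2% in E10 YS HSPCs, but 8.66% in E11 non-HE and 9.49% in E11 YS HSPCs, with the lowest E11 share in EHT cells (5.17%). Levels are of 3′ tags, 1 per molecule, and were not divided by transcript length.

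The 56 other G2/M genes, which hold further members of the same machinery, were read over the same 10 comparisons. The share of all genes stands in brackets. Of those with at least 20 transcripts, 8 of 27 were at least 2-fold higher (9.71%) and 0 lower (5.83%) in E10 HE than in non-HE. In E10 EHT against HE, 1 of 44 was higher (10.51%) and 1 lower (9.22%). In E10 IAHC against EHT, 2 of 42 were higher (5.46%) and 7 lower (15.84%), which is near the shares of all genes. In E10 YS HSPC against IAHC, 8 of 37 were higher (9.19%) and 1 lower (9.74%). At E11, 0 of 12 were higher (7.32%) and 4 lower (5.05%) in HE than in non-HE. In EHT against HE, 5 of 13 were higher (8.71%) and 1 lower (14.12%). In type I against EHT, 2 of 21 were higher (7.41%) and 2 lower (12.60%), near the shares of all genes. In type II against type I, 5 of 30 were higher (3.42%) and 0 lower (4.11%). For E11 IAHC over EHT 13 of 51 were higher (12.44%) and 4 lower (14.29%), and for E11 YS HSPC over IAHC 5 of 49 higher (3.80%) and 5 lower (19.56%). Their summed ratio stood on the other side of 1 from the members only for E10 IAHC over EHT (0.979, 0.910 to 1.05) and type I over EHT (0.984, 0.891 to 1.09), with intervals that include 1.

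At E10, paralogue pairs among the members had different courses. Aurka went from 0.0465 in E10 non-HE to 0.709 in E10 YS HSPCs, whereas Aurkb stayed between 0.149 and 0.230 over all 5 E10 populations. Bub1b went from 0.0698 to 0.376 over the same populations and Bub1 lay between 0.112 and 0.188. Ckap2 was highest at E10 in EHT (0.262) and lowest in YS HSPCs (0.0496), whereas Ckap2l was lowest in non-HE (0.0930) and highest in YS HSPCs (0.241). At E11 Aurkb did not stay level and lay at 0.0870 in HE and 0.478 in EHT cells, and Aurka between 0.133 in non-HE cells and 0.565 in YS HSPCs. Bub1 and Bub1b were both lowest in HE cells at E11 (0.0217 and 0.0870) and both highest in type II pre-HSCs (0.273 and 0.618).

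Kif11 and Hmgb2, chosen after their values were seen, departed from the order of the summed members. Kif11 was at 0.302, 0.194 and 0.230 per cell in E10 non-HE, HE and EHT, and at 1.03 and 1.26 in E10 IAHC and YS HSPCs. At E11 it was at 1.3 in type II pre-HSCs but at 0.279 in IAHC cells and 0.261 in YS HSPCs, with 0.160 to 0.846 over the sorted sets of IAHC cells. Hmgb2 was highest in EHT at both stages, at 1.66 at E10 and 2.11 at E11, and lay between 0.507 and 1.08 in the other E10 populations (of 3000 transcripts) and between 0.717 and 1.53 in the other E11 populations (of 5000 transcripts). The sorted sets overlapped: its set means were 0.378 and 1.51 in E10 HE, 1.28 to 2.38 in E10 EHT and 0.349 to 3.14 in E11 IAHC cells.

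**Figure D3:**
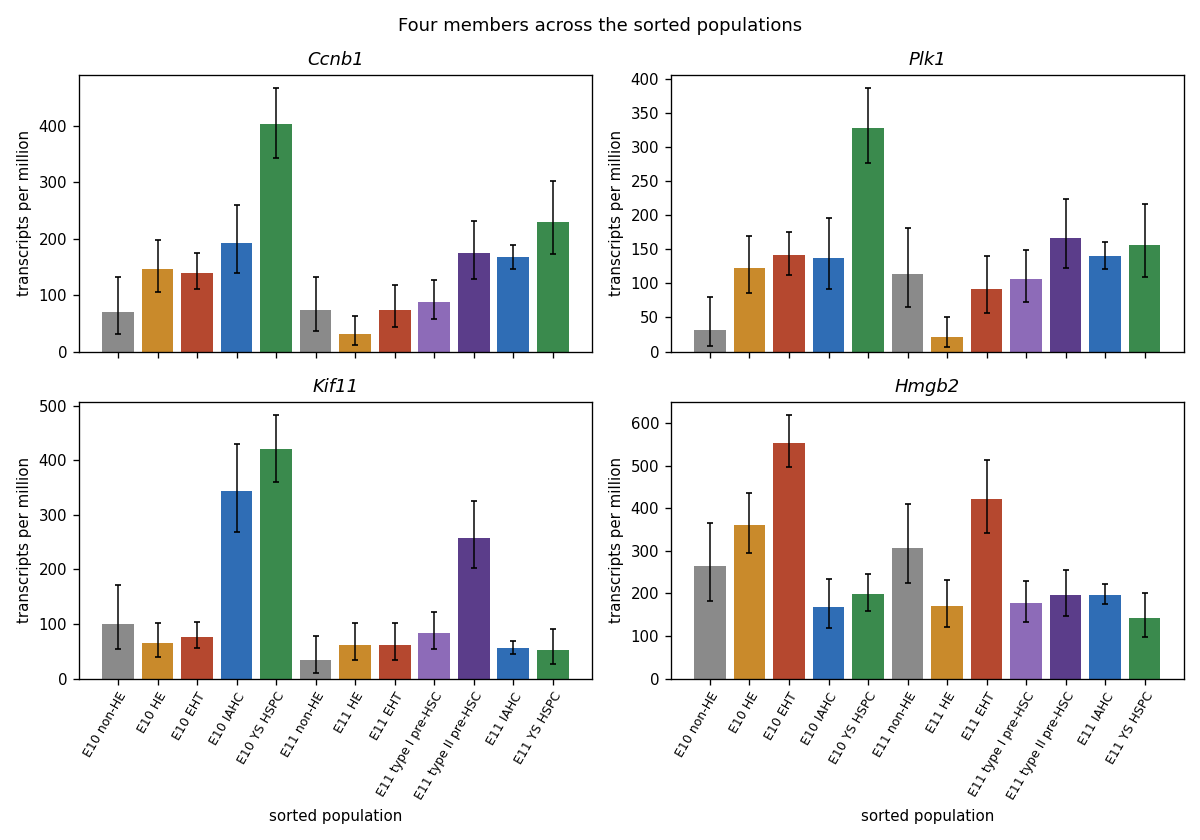
Depth-scaled level in CPM (y axis, each panel with its own scale from 0) of Ccnb1, Plk1, Kif11 and Hmgb2 in the 12 sorted populations (x axis), with bars for the mean and lines for the 95% Poisson interval. Ccnb1 and Plk1 peak in E10 YS HSPCs, Hmgb2 peaks in EHT at both stages, and Kif11 is high in E10 IAHC, E10 YS HSPC and type II pre-HSC only.

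Whether members were found in the same cells was described by the share of each gene's transcripts that fell in the fifth of cells richest in the other members; a gene spread evenly would have the same share there as the cells themselves. In E11 IAHC cells (58 of 290 cells; 40 members with at least 30 transcripts) the median share was 40.6%. Nusap1 (62.7%), Hmmr (61.8%), Ect2, the activator of the cleavage furrow (60.9%), the kinetochore motor Cenpe (58.3%), Ckap2 (58.1%), Kif23 of the central spindle (53.8%), Ccnb1 (51.2%) and Ube2c (50.1%) were the most concentrated. Lbr (21.9%), Mad2l1 (21.9%), Tmpo (24%), Cks1b (27.7%), Kif11 (30.9%), Hmgb2 (31.5%), Bub1 (31.8%) and Ncapd2 (32.7%) were the least. Role groups were mixed in this respect: Ccnb1 was at 51.2% and Ccnb2 at 34.2%, and the 9 spindle genes read ran from 30.9% to 62.7%. Both nuclear envelope genes were among the 8 least concentrated members. With the fifth taken within each of the 9 sorted sets, a setting added after seeing the data, the median was 38.8%, the 8 least concentrated members were the same genes (22.7% to 32.3%), and 6 of the 8 most concentrated remained among the highest 8, whereas Ect2 (43.5%) and Kif23 (42.3%) did not. All cells share their depth and library preparation within a set, and the shares are descriptions without a test.

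In E10 YS HSPCs (28 of 141 cells; 27 members) the shares ran from 13.7% (Ncapd2) to 34.5% (Plk1) with a median of 23.6%, and 0 members reached 40%, against 21 of 40 in E11 IAHC cells. In E11 YS HSPCs the median was 24.3%, in E10 EHT 44.8% and in E10 HE 57.1%, where Ccnb1 reached 79.1%, Ube2c 77.9% and Plk1 75.0% and Lbr stayed at 19%. In the populations where Kif11 was high, its share was close to or below that of an even spread. It was 13% in type II pre-HSCs (6 to 23), against 42% for the other members summed. It was 20% in E10 IAHC cells (12 to 31), against 43%, and 20% in E10 YS HSPCs (14 to 26), against 29%. High Kif11 there thus did not mark the cells rich in the other members. Genes that are no members were read in the same cells. Between the fifth of E11 IAHC cells poorest in members and the fifth richest in them, 56 other G2/M genes went from 10.3 to 34.1 per cell (ratio 3.29, 3.0 to 3.61) and 38 S phase genes went from 21.3 to 22.6 (1.06, 0.981 to 1.2). In E10 YS HSPCs these ratios were 1.4 and 0.806, and in E11 EHT cells 4.37 and 4.41. The cells richest in members held 27.4 S phase transcripts per cell in E11 EHT and 22.6 in E11 IAHC cells, and those poorest in them held 6.22 and 21.3, so that the gap between the populations was wider among cells poor in members.

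**Figure D4:**
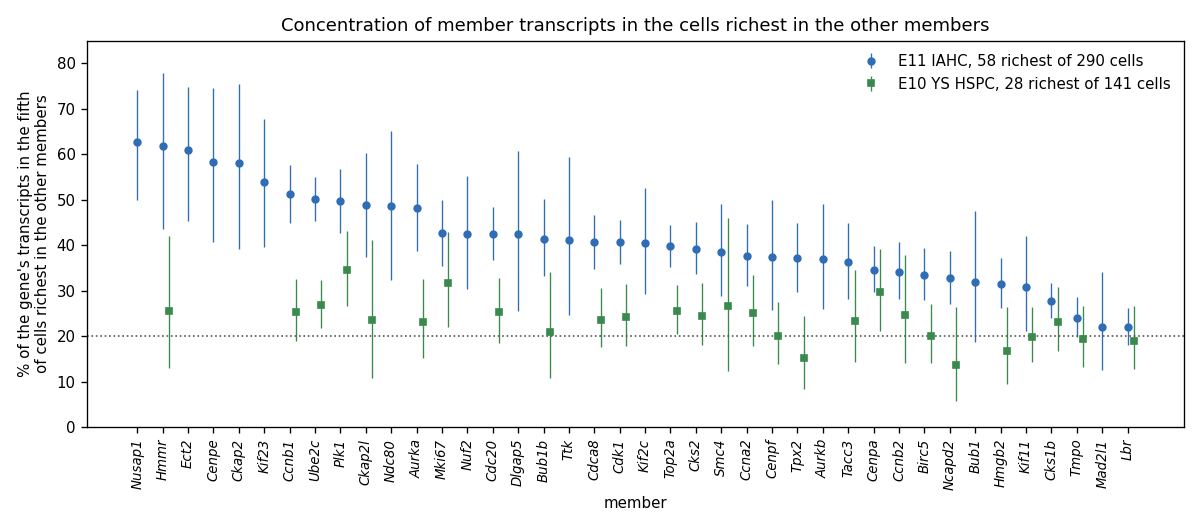
Percent of each member's transcripts (y axis) found in the fifth of cells richest in the other members, for members (x axis) with at least 30 transcripts, in E11 IAHC cells and E10 YS HSPCs, with 95% binomial intervals and a dotted line at the share expected of an even spread. E11 IAHC values run from 21.9% to 62.7% and E10 YS HSPC values from 13.7% to 34.5%.

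Of the promoters of the 8 most concentrated members in E11 IAHC cells, 3 held TTTGAA and 7 held CCAAT, and of the 8 least concentrated, 6 and 7. The sequences printed above include Ccnb1 and Ube2c of the first group and Kif11, Lbr and Hmgb2 of the second.

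Whole clusters gave the replicated comparison. Of 109 wIAHCs, 57 with at least 5000 transcripts were used (at E10 21 ventral and 7 dorsal, at E11 17 and 12; 5099 to 115328 transcripts). Clusters of 1 embryo could not be recognised, so p-values measure the spread between clusters. A wIAHC is a pool of cells, in which fewer cells rich in a transcript and less of it per cell cannot be told apart. Members took 0.457%, 0.731% and 0.969% of transcripts (lowest, median, highest) in E10 ventral wIAHCs and 0.332%, 0.618% and 0.805% in E10 dorsal. They took 0.276%, 0.649% and 1.32% in E11 ventral and 0.180%, 0.687% and 1.11% in E11 dorsal. The 4 ranges overlapped widely. All E10 wIAHCs belong to 1 collection set and the E11 wIAHCs to 2 others, so that stage and collection set cannot be told apart in any comparison of stages. Globin transcripts, a sign of erythroid cells or their RNA, exceeded 5% in 2 ventral and 2 dorsal wIAHCs, all at E11.

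In edgeR's quasi-likelihood test, 260 genes passed the filter on low counts, and 2 members were among them, Hmgb2 and Ube2c. The other 40 members were not tested there. Hmgb2 was at 194, 669 and 2360 CPM (transcript counts scaled to the library total; lowest, median, highest) in the E10 ventral group. The dorsal group at E10 had 302, 472 and 933, and at E11 the ventral wIAHCs had 120, 434 and 1080 and the dorsal ones 0, 489 and 1020. The E10 ventral group reached highest, and all 4 ranges overlapped. Between E11 and E10 ventral wIAHCs, Hmgb2 fell by 0.63 on the log2 scale (SE 0.24, adjusted p = 0.0416 by edgeR with Benjamini-Hochberg adjustment); 1 of 2 members was lower (all genes 13.08%) and 0 higher (all genes 18.08%). The log2 difference was -0.89 in DESeq2 (adjusted p = 0.0840) and -0.79 without the filter (adjusted p = 0.0847 by edgeR), where 13627 genes were tested and the difference was not smaller. The call was also lost on leaving out any 1 of 10 wIAHCs, which were E10 ventral 6 and 15 and E11 ventral 9, 19, 20, 21, 24, 26, 27 and 34 (log2 -0.63 to -0.50, adjusted p 0.0512 to 0.0813 by edgeR). Erythroid content moved with the same comparison: the 3 erythroid genes tested were all higher at E11 in ventral wIAHCs (median log2 8.09, edgeR). The median globin share was 0.0138% at E10, 0.0532% in the first E11 collection set (4 ventral wIAHCs) and 0.334% in the second (13 ventral wIAHCs). Of the wIAHCs used, the 4 above 5% globin belong to the second E11 collection set. Without those wIAHCs Hmgb2 differed by -0.65 (adjusted p = 0.0452 by edgeR), and the part of erythroid content in the remaining wIAHCs was not tested.

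At E10, Ube2c was at 0, 336 and 909 CPM in ventral and 121, 302 and 725 in dorsal wIAHCs. At E11 it was at 0, 314 and 1410 in ventral and 0, 160 and 827 in dorsal wIAHCs. It differed by 0.42 (SE 0.32, adjusted p = 0.311 by edgeR) between E11 and E10 ventral and by 0.04 (SE 0.51, adjusted p = 0.984 by edgeR) between E11 and E10 dorsal wIAHCs, so that no stage difference passed the threshold. Hmgb2 differed by 0.28 (SE 0.37, adjusted p = 0.682 by edgeR) between the dorsal groups. In that comparison 0 members were higher (all genes 7.31%) and 0 lower (all genes 1.92%) by edgeR. An unadjusted p under 0.05 was found for 0 of 2 members (all genes 67 of 260). Without the filter 2 of 42 members had one (all genes 1402 of 13627) and 0 were called (all genes 107). DESeq2 called 1 of 42 members (all genes 191 of 13627). The DESeq2 counts here and below are set against all genes fitted. DESeq2 gave some of these genes no adjusted p, Aurka in this contrast among them, and they could not be called. The shares of callable genes are therefore higher than these counts give.

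Between ventral and dorsal wIAHCs, 0 members were higher or lower at E10 (all genes 0% in either direction) and at E11 (all genes 0% in either direction). By edgeR, 0 of the 2 members tested had an unadjusted p under 0.05 at either stage. Over all 260 genes, 20 had one at E10 and 23 at E11. Without the filter 4 of 42 members had one at E10 and 3 at E11 (all genes 727 and 1217 of 13627). Members called without the filter were 0 at both stages (all genes 8 at E10 and 12 at E11). DESeq2 called 0 of 42 members at E10 (all genes 0) and 1 at E11 (all genes 23 of 13627). Hmgb2 differed by 0.58 (SE 0.32, adjusted p = 0.629 by edgeR) at E10 and by -0.33 (SE 0.31, adjusted p = 0.757 by edgeR) at E11. The interaction of stage and side was -0.91 for Hmgb2 (SE 0.45, adjusted p = 0.485 by edgeR). In it edgeR called 0 members (all genes 0% in either direction). Of the 2 members tested, 1 had an unadjusted p under 0.05 (all genes 26 of 260). DESeq2 called 0 of 42 members in the interaction (all genes 0). The stage difference of Hmgb2 was therefore not shown to differ between sides.

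The other members could be read only in wider fits. DESeq2 was fitted to 13627 genes, and its adjustment covered only those that it gave an adjusted p. By DESeq2, Birc5 was lower in E11 than in E10 dorsal wIAHCs (log2 -1.64, SE 0.63, adjusted p = 0.0472). It was higher in ventral than in dorsal wIAHCs at E11 (1.87, SE 0.55, adjusted p = 0.0349 by DESeq2). Its levels at E10 were 0, 179 and 379 CPM in ventral and 0, 182 and 302 in dorsal wIAHCs, and at E11 0, 243 and 507 in ventral and 0, 72.0 and 234 in dorsal wIAHCs. The dorsal E11 group, with a transcript of Birc5 in 7 of 12 wIAHCs, was the low one. In edgeR without the filter the same differences were -1.33 (adjusted p = 0.344) and 1.6 (adjusted p = 0.211).

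Aurka had a transcript in 17 of 21 ventral and 6 of 7 dorsal wIAHCs at E10, and in 12 of 17 and 2 of 12 at E11. With genes of at least 50 transcripts over the wIAHCs, a setting added after seeing the data, edgeR gave -2.64 (SE 0.77, adjusted p = 0.0488) between E11 and E10 dorsal wIAHCs; without the filter, the adjusted p was 0.0535. DESeq2 gave -2.82 (SE 0.77) with no adjusted p for Aurka, nor one for its difference of 2.19 (SE 0.71) between sides at E11, so that it could not be called there. The call rests on 1 of the 7 E10 dorsal wIAHCs, which had 435 CPM: without it the mean of that group was 67.4 CPM in place of 120, and the difference was -2.35 (SE 0.79, adjusted p = 0.106 by edgeR). In the fit of 50 transcripts, the members with the smallest p between E11 and E10 ventral wIAHCs were Kif2c (1.33, adjusted p = 0.0591 by edgeR), Hmgb2 (-0.73), Mad2l1 (-1.2), Kif11 (0.86) and Cenpf (0.72). Between ventral and dorsal wIAHCs at E10 they were Plk1 (1.63, adjusted p = 0.647 by edgeR), Mad2l1 (1.2), Cdca8 (0.94), Cenpa (0.97) and Ccna2 (0.87). At E11 they were Birc5 (1.58, adjusted p = 0.176 by edgeR), Aurka (2.21), Ube2c (0.77), Dlgap5 (1.01) and Cks2 (0.70). Without the filter 31 of 42 members had a higher ventral value at E10 and 34 of 42 at E11, with a median over the members of 0.30 and 0.36 and over all genes of 0.09 and 0.24. Under DESeq2 33 and 36 of 42 members had a higher ventral value, with medians of 0.38 and 0.55 over the members and 0.00 and 0.06 over all genes. At 50 transcripts 32 of 41 members had a higher ventral value at E10 and 31 at E11. The medians there were 0.33 at both stages over the members, and 0.12 and 0.29 over all genes. These counts are descriptions without a test. Kif11 reached 3310 CPM in 1 of 12 E11 dorsal wIAHCs, against a median of 218 there and a highest value of 532 in E11 ventral wIAHCs.

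**Figure D5:**
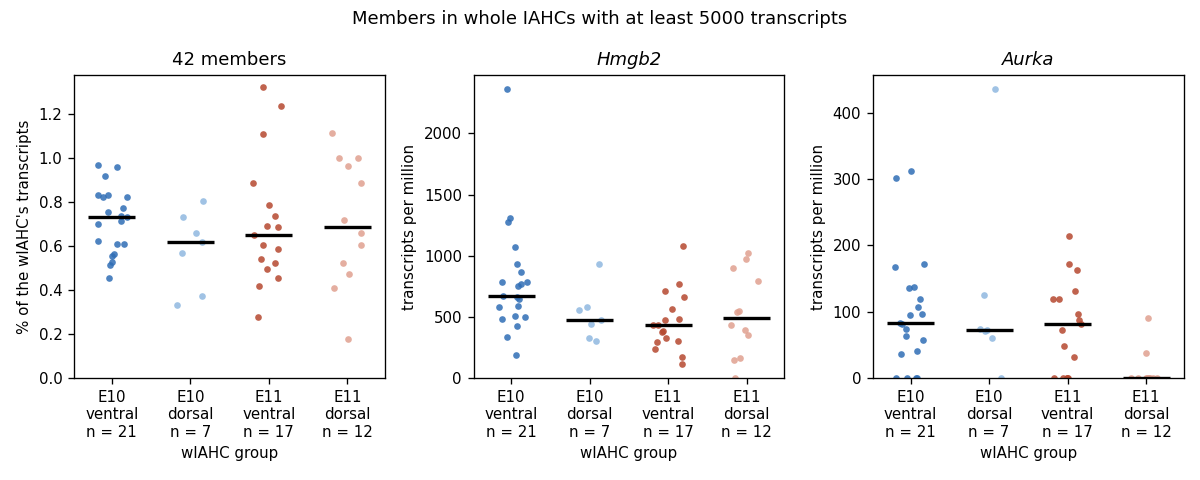
Members in wIAHCs with at least 5000 transcripts (1 point per wIAHC, line at the median), by stage and side (x axis), as the share of transcripts of the 42 members and the levels of single members (y axes, from 0). The groups overlap in the summed share, with medians of 0.731%, 0.618%, 0.649% and 0.687%.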

How the data were processed

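CEL-Seq libraries of sorted single cells and of wIAHCs were analysed from 3 deposited tables. Per the submitters' processing notes, reads were mapped with BWA 0.6.2-r126 to mm10; the annotation is not given in the sources used here. The deposited values are estimated counts: the authors corrected unique molecular identifiers for collisions, and for single cells down-sampled each cell to 3000 (E10) or 5000 (E11) transcripts and added 0.1, which was subtracted here. Down-sampling removes differences in RNA content per cell. The wIAHC values are not scaled for depth and were rounded. A barcode list was not used. No doublet caller was run, since cells were sorted into wells.

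Members and gene lists were chosen with earlier results of these data known. Ratios between populations carry exact conditional binomial intervals, means Poisson intervals and shares Clopper-Pearson intervals, each at 95%. Ratios of a single gene needed 20 transcripts over both populations. Named genes are the 5 highest and 5 lowest ratios per pair, the 8 most and 8 least concentrated members, every member called in wIAHCs and the 5 with the smallest p, and paralogue pairs; Plk1, Kif11 and Hmgb2 levels over all populations were chosen after their values were seen. wIAHCs with at least 5000 transcripts were fitted in 1 model of 4 groups with edgeR 4.0.16 (TMM, filterByExpr, quasi-likelihood test, threshold 0.05 after Benjamini-Hochberg adjustment over all genes) in R 4.3.3, with DESeq2 1.42.0 as the alternative. On simulated counts for E11 minus E10 ventral (348 genes tested), 60 of 60 genes changed 4-fold, 35 of 40 changed 2-fold and 3 of 248 unchanged genes were called. These counts cover only genes that passed the filter on low counts, and changed genes that failed it are left out. They therefore say nothing of the 40 members that failed the filter. Other computations used Python 3.11.15, pandas 2.3.3, numpy 2.4.6 and scipy 1.17.1. Alternatives were other depths, filters, scalings, cell selections and left-out sets or wIAHCs. Some values are given to 2 digits.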

Additional observations from a re-analysis of the deposited data

Results flagged for a closer look

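The summed members were 1.72 times higher in HE than in non-HE cells at E10 and 0.444 times the non-HE level at E11, which draws attention because the same contrast points in opposite directions at the 2 stages. With 1 sample per population and stage, this difference was not tested.

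Aurka stood apart in 1 of 7 E10 dorsal wIAHCs, at 435 CPM against a median of 73.2: the gap to the next wIAHC was 0.713 of the whole range, above Dixon's critical value at 95% for 7 samples. Of 10 quantities examined this way, chance marks about 1 in 20.

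The 52 wIAHCs with under 5000 transcripts, left out of the comparisons, held 618 member transcripts, or 0.616% of their transcripts, and 45 of them held at least 1.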

How the results depend on the processing

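The labels pair no samples, since every labelled group has 1 sample, but the deposited names number the sorted sets. With the set number as a block (strata), chosen after the set means were seen, type II over type I was 1.33 (1.23 to 1.4), and the 3 sets gave 0.707, 1.55 and 1.34; whether equal numbers mark 1 sort is not given. Collection sets are shared by ventral and dorsal wIAHCs at E11. With the set as a term edgeR called 0 members between sides there (2 members tested, all genes 0 of 260). Under the alternatives on pooled single-cell sums, no ratio whose counting interval lay apart from 1 crossed to the other side; these intervals leave out the spread between cells and sets, and the first set of pre-HSCs did lie on the other side. By medians per cell, chosen after the values were seen, the E10 ratios were 2.0, 1.3, 1.3 and 1.53 from HE over non-HE to YS HSPC over IAHC, and the E11 ratios were 0.667 for HE over non-HE, 1.4 for type I over EHT, 1.78 for type II over type I, 2.32 for IAHC over EHT and 1.3 for YS HSPC over IAHC. Without Hmgb2, a member lower in IAHC than in EHT cells at both stages, IAHC over EHT was 1.18 at E10 and 1.41 at E11. Kif11, higher in IAHC cells at E10, was kept in these ratios. With IAHC cells that pass the study's purification rule, E10 IAHC over EHT was 1.18 and E10 YS HSPC over IAHC 1.2. With c-kit+ E11 IAHC cells only, IAHC over EHT was 1.4 and YS HSPC over IAHC 1.08. Leaving out each sorted set gave, at E10, 1.55 to 1.87 for HE over non-HE, 0.930 to 1.1 for EHT over HE, 1.01 to 1.2 for IAHC over EHT and 1.2 to 1.4 for YS HSPC over IAHC. At E11 it gave 0.429 to 0.454 for HE over non-HE, 1.11 to 1.26 for type I over EHT, 1.2 to 1.43 for type II over type I, 1.3 to 1.34 for IAHC over EHT and values that round to 1.2 at the lowest and at the highest for YS HSPC over IAHC; HE and EHT at E11 have 1 set each.

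In ventral wIAHCs between stages, 0 members were called under DESeq2 (all genes 161 of 13627) and without the filter (all genes 310 of 13627). As above, the DESeq2 counts are set against all genes fitted, of which those without an adjusted p could not be called. At a minimum of 10000 transcripts 0 were called (all genes 132 of 490). At 50 transcripts over the wIAHCs 0 were called (all genes 232 of 4864). Leaving out single wIAHCs gave 0 to 1. Between dorsal stages 1 of 42 members was called under DESeq2 (all genes 191 of 13627). At 50 transcripts 1 of 41 was called (all genes 81 of 4864), which was Aurka, and 0 without the E10 dorsal wIAHC highest in it. Between sides at E11 DESeq2 called 1 of 42 (all genes 23 of 13627). Leaving out single wIAHCs was run on the edgeR fit with 2 members tested and not on DESeq2 or at 50 transcripts. It gave 0 to 0 in the 4 contrasts other than the ventral stages. The cause was not tested. Hmgb2 kept its direction throughout, with -0.77 to -0.50 on leaving out single wIAHCs (adjusted p 0.0115 to 0.0813 by edgeR). Depth limits the wIAHC results: 40 of 42 members were too low for the filter. Scaling by library size without TMM moved the median of all genes by -0.13 between ventral and by -0.17 between dorsal stages.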
